A study of Mus musculus with 15 samples.

Results

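The genes through which cytotoxic lymphocytes kill were followed in mouse heart and liver allografts. They comprised 9 genes measured by 13 probes, of 32171 genes and 41003 probes in all: the granzymes Gzma, Gzmb, Gzmc and Gzmk, perforin (Prf1), the granule protein Nkg7, Fas ligand (Fasl), its receptor Fas, and Serpinb9. Members were taken by gene symbol, reached through the transcript accession that the array gives for each probe, and each of the 9 had at least 1 probe. Where a gene had 2 probes, the brighter over all arrays stands for it and the other is given beside it.

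Cytotoxic T cells and NK cells carry granules in which perforin and granzymes are packed on a proteoglycan. On contact with a target the granules fuse with the cell surface, perforin opens the target membrane, and the granzymes, which are serine proteases, enter and cut substrates that start cell death. In a separate route Fas ligand on the lymphocyte binds Fas on the target and engages caspases, while Serpinb9 inhibits granzyme B and protects the lymphocyte itself. Rejection of a graft across a major histocompatibility difference is the classic setting of this programme.

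RNA was hybridised to 15 single-colour arrays, 3 for each of 5 groups. Heart allografts were male C57BL/10 (B10, H-2b) hearts placed in the abdomen of male CBA (H-2k) recipients and taken on day 5 after surgery (POD5). Liver allografts were male B10.BR (H-2k) livers transplanted in the normal position into male B10.D2 (H-2d) recipients and taken at POD5 or POD8. The heart and liver controls are labelled as normal tissue, whereas other parts of the study speak of syngeneic grafts, so which of these they were, and their strain, cannot be told. Animal age was not given in the sources used here, and mice were described by weight. Nothing says that samples of a group were pooled, and p-values measure only the spread between these arrays. The organs matched their labels: the 7 cardiomyocyte genes listed were higher in hearts, and the 6 hepatocyte genes measured were lower in them, in both comparisons between organs, with medians of 12.03 and -13.82 log2 units between the controls.

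Array brightness differed by group before scaling. Liver control arrays were dimmest, with a 75th percentile of processed signal from 92.1 to 226, heart control arrays brightest, from 1021 to 1247, and allograft arrays between them, from 338 to 710. Values below are log2 signals after quantile normalization over all 15 arrays, called above background where the scanner software marked the probe as well above background. Arrays also differed by slide: the 3 heart allografts shared a slide with 1 liver POD5 array and the 3 heart controls had a slide of their own, so for the hearts slide and group cannot be told apart. No slide held both POD5 and control livers, or both POD5 and POD8 livers, so these comparisons have no values within a slide either.

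The sequence just before the transcription start is shown for 3 members that stand for the contrasts described below: Gzmb and Prf1, which had the largest differences in the heart, and Fas, which passed no test. Each is 250 bases of RefSeq sequence on build GRCm38.p6, read 5′ to 3′ on the strand of the gene and ending at the base before the start. Capitals mark matches, on either strand, to 4 motifs: the T-box core GGTGTGA, the Runx site TGTGGT, the AP-1 site TGANTCA and the STAT site TTCNNNGAA. Gzmb lies at chr14:56262335-56262584 (minus strand), Prf1 at chr10:61297586-61297835 (plus strand) and Fas at chr19:34290409-34290658 (plus strand).
Gzmb: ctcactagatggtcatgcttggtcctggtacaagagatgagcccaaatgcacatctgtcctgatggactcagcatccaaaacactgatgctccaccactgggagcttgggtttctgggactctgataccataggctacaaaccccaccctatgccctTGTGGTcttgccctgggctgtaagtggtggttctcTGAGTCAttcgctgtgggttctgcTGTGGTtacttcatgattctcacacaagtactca
Prf1: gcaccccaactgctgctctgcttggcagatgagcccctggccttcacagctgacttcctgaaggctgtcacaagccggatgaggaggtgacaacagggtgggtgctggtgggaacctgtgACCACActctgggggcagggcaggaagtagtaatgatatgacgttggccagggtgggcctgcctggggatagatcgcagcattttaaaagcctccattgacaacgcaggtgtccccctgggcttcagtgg
Fas: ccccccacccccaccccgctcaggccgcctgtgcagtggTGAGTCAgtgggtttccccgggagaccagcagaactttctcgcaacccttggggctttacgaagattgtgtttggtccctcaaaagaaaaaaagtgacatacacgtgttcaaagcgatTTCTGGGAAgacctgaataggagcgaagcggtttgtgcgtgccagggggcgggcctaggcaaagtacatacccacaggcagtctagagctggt
In Gzmb the Runx letters began 93 and 34 bases before the start and the AP-1 letters 58 bases before it. In Prf1 the Runx letters, read on the opposite strand, began 130 bases before the start. Over the 9 members, 5 had the Runx letters in this window (Gzma, Gzmb, Gzmc, Prf1 and Nkg7), against 14.0% of 32851 promoters of the same length. The T-box core was found in 2 members (Gzmk and Nkg7), against 3.33% of promoters, the AP-1 site in 2 (Gzmb and Fas), against 6.75%, and the STAT site in 2 (Nkg7 and Fas), against 7.02%. No match overlapped another, and the matches describe letters only.

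In each of the 3 allograft groups, 8 of the 9 genes were called higher than in the controls of the same organ, and Fas was the exception. In the liver at POD5 the 8 include Gzmc, for which no fold above 1 can be bounded there. Of all probes, 13.3% were called higher and 15.3% lower in heart allografts, 8.12% higher and 7.02% lower in POD5 livers, and 7.02% higher and 4.65% lower in POD8 livers. On the log2 scale the 9 genes had a median difference of 4.18 (heart), 4.82 (liver POD5) and 4.58 (liver POD8), beside 0.02, -0.07 and -0.08 over all probes. With the 4 genes that have no measured liver control (Gzmc, Gzmk, Prf1 and Fasl) at their lower bounds, the liver medians were 2.65 and 2.80. In the heart the allograft arrays lay above every control array for 8 genes, a pattern shown by 29.0% of probes. In the liver this held for all 9 genes on both days, where 12.4% and 12.9% of probes showed it. Within the slide that held 2 POD8 and 2 control livers, the POD8 differences were as large (Gzmb 7.19, Gzma 5.56, Serpinb9 1.31). Prf1 differed there by 5.07, from controls not well above background. With slide as a fixed block, however, no probe on the array passed, and the lowest limma adjusted p of the 9 genes was 0.0531. In bulk tissue, fewer cells of a type and less RNA per cell cannot be told apart. Markers of lymphocytes moved with these genes: of 8 T cell genes measured, 8 were higher in heart allografts and 6 in liver allografts on each day, and of 10 NK cell genes 10, 8 and 10 were higher. On the 3 liver control arrays, 4, 6 and 5 of the 8 T cell genes were well above background. Of the 10 NK cell genes 3, 5 and 4 were, so the liver counts rest in part on unmeasured controls. The mean log2 signal of the T cell genes was 5.59 to 5.98 in heart controls and 9.42 to 9.76 in heart allografts, and 4.65 to 5.35 in liver controls, 9.02 to 9.45 at POD5 and 8.76 to 9.06 at POD8. The part of cell numbers in the results was not tested.

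**Figure D1:**
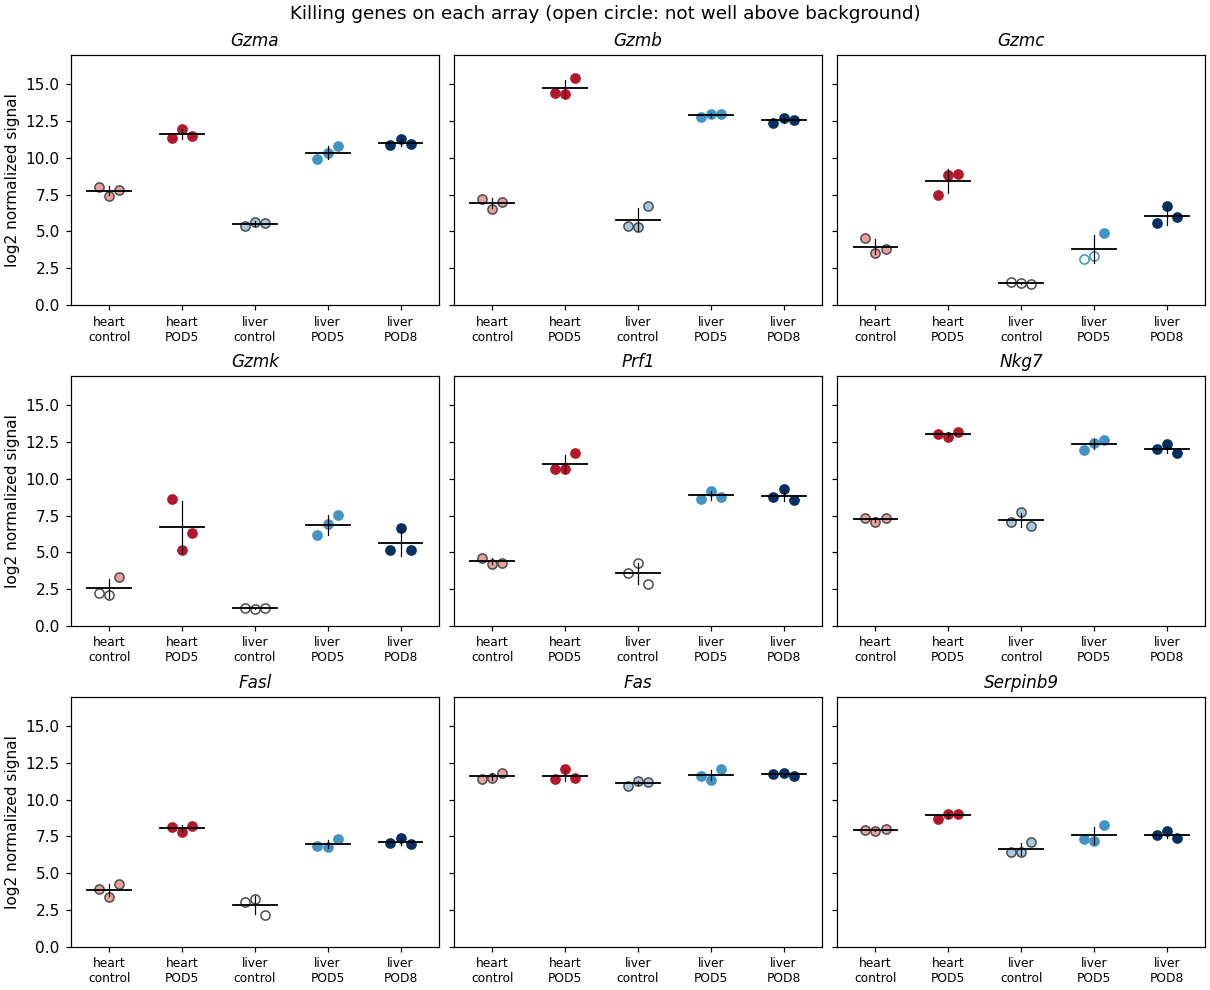
Log2 normalized signal of the main probe of each of the 9 genes on each of the 15 arrays (vertical axis), by group (horizontal axis). Each point is 1 array, lines are the mean with the standard deviation, and open circles are arrays where the probe was not well above background. Gzmb reached 14.34 to 15.40 in heart allografts, while Fas stayed between 10.97 and 12.07 on all arrays.

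Gzmb, the granzyme that cleaves caspases and Bid, had the largest difference of the 9 genes in the heart and, in the liver, of the 5 whose controls were measured. Its log2 signal was 7.22, 6.54 and 7.03 on the heart control arrays and 14.44, 14.34 and 15.40 on the heart allograft arrays. In the liver it was 5.34, 5.32 and 6.69 in the controls, 12.75, 13.00 and 12.95 at POD5 and 12.34, 12.70 and 12.59 at POD8. The lowest allograft array lay far above the highest control array in both organs. Gzmb was 223-fold higher in heart allografts (95% confidence interval 128 to 388, limma with Benjamini-Hochberg adjustment, adjusted p = 7.69e-08), 139-fold in the liver at POD5 (79.6 to 242, adjusted p = 1.09e-06) and 108-fold at POD8 (62.2 to 189, adjusted p = 7.35e-07).

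Gzma, a tryptase-type granzyme, was well above background in control hearts. It measured 8.03, 7.42 and 7.80 in heart controls and 11.36, 11.98 and 11.49 in heart allografts. In the liver it measured 5.35, 5.64 and 5.57 in controls, 9.89, 10.35 and 10.77 at POD5 and 10.84, 11.27 and 10.96 at POD8. In the liver every POD8 array lay above every POD5 array. The rise was 14.5-fold in the heart (10.01 to 21.03, limma adjusted p = 8.03e-07), 28.2-fold at POD5 in the liver (19.5 to 40.9, adjusted p = 1.05e-06) and 45.4-fold at POD8 (31.3 to 65.8, adjusted p = 2.81e-07).

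Gzmc belongs to the granzyme cluster that also holds Gzmb, and its probe was dim in liver. In the heart it measured 4.51, 3.54 and 3.81 in controls and 7.49, 8.81 and 8.93 in allografts, a rise of 21.98-fold (10.3 to 47.1, limma adjusted p = 5.9e-05). In the liver no control array was well above background (1.58, 1.48 and 1.44). At POD5 only the third array was above background, at 4.89, with the others at 3.14 and 3.33, and at POD8 all 3 were, at 5.53, 6.74 and 5.95. Gzmc at POD8 was at least 3.35-fold higher than in the controls (limma adjusted p = 0.000142). At POD5 it passed the test (limma adjusted p = 0.0103), but the liver control arrays cannot read low enough to bound a fold above 1, and the call was lost when the liver POD5 and control arrays were normalized and fitted on their own (adjusted p = 0.103) and with another background correction (adjusted p = 0.501).

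Gzmk, a granzyme of memory T cells, had the largest standard error of the 9 genes, 0.74 on the log2 scale in each comparison of allografts with controls. The heart allograft arrays read 8.62, 5.15 and 6.30, and the heart controls 2.26, 2.09 and 3.29, of which 1 was above background. The liver controls were all below background (1.18, 1.16 and 1.19), while POD5 read 6.17, 6.92 and 7.54 and POD8 read 5.12, 6.63 and 5.14. The groups did not overlap in either organ in spite of this spread. Gzmk was 17.7-fold higher in the heart (5.82 to 54.0, limma adjusted p = 0.00135), at least 5.82-fold at POD5 in the liver (adjusted p = 0.000381) and at least 2.46-fold at POD8 (adjusted p = 0.00225). The POD8 call was lost with another background correction (adjusted p = 0.229).

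Prf1, which forms the pore through which granzymes enter, went from low or unmeasured signal to bright. It measured 4.61, 4.23 and 4.28 in heart controls and 10.65, 10.68 and 11.74 in heart allografts. In the liver no control was well above background (3.61, 4.28 and 2.84), and the allografts read 8.64, 9.19 and 8.78 at POD5 and 8.76, 9.28 and 8.55 at POD8. Prf1 was 100.1-fold higher in the heart (57.0 to 176, limma adjusted p = 3.16e-07). Under other processing settings this log2 difference ran from 4.53 to 6.80, a range that the interval does not cover. The liver rise was at least 22.3-fold on the earlier day (adjusted p = 4.71e-06) and at least 22.1-fold on the later (adjusted p = 4.62e-06).

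Nkg7, a membrane protein of cytotoxic granules, rose on both of its probes in all 3 comparisons. The brighter read 7.33, 7.03 and 7.33 in heart controls and 13.07, 12.82 and 13.19 in heart allografts. In the liver it read 7.05, 7.72 and 6.77 in controls, 11.97, 12.45 and 12.66 at POD5 and 12.02, 12.34 and 11.78 at POD8. The controls of the 2 organs therefore overlapped for this gene, with a difference of 0.05 (95% confidence interval -0.51 to 0.61). The rise was 55.5-fold (37.7 to 81.7, limma adjusted p = 5.53e-08) in the heart, 36.2-fold (24.6 to 53.3, adjusted p = 9.48e-07) at POD5 and 29.1-fold (19.8 to 42.9, adjusted p = 6.88e-07) at POD8. The second probe gave 51.3-, 55.8- and 47.2-fold.

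Of the death ligand and its receptor, Fasl rose in all 3 comparisons on its main probe and Fas passed the test in none. Fasl read 3.93, 3.39 and 4.26 in heart controls and 8.16, 7.79 and 8.18 in heart allografts, a rise of 18.2-fold (11.5 to 28.6, limma adjusted p = 1.94e-06). In the liver controls it was below background on all arrays (3.05, 3.28 and 2.15), and it read 6.84, 6.81 and 7.31 at POD5 and 7.04, 7.40 and 6.96 at POD8. These are rises of at least 6.29-fold (limma adjusted p = 5.59e-06) and at least 6.96-fold (adjusted p = 4.3e-06). The main Fasl probe was printed as 10 spots on each array. The second Fasl probe, a single dim spot, gave 3.49 in the heart (limma adjusted p = 5.09e-05), at least 10.6-fold, but 0.65 (adjusted p = 0.284) and 0.94 (adjusted p = 0.143) in the liver, where its controls were scattered from 3.23 to 5.34.

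Fas was well above background on every array. It read 11.44, 11.49 and 11.84 in heart controls and 11.41, 12.07 and 11.46 in heart allografts, and these overlapped (difference 0.05, 95% confidence interval -0.42 to 0.53, limma adjusted p = 0.911). In the liver it read 10.97, 11.26 and 11.20 in controls, 11.59, 11.37 and 12.07 at POD5 and 11.73, 11.83 and 11.61 at POD8. Here the groups did not overlap, and the differences were 0.53 (0.06 to 1.004, limma adjusted p = 0.117) and 0.58 (0.11 to 1.05, adjusted p = 0.108). On the main probe these intervals allow at most a 2.01-fold rise at POD5 and a 2.07-fold rise at POD8, and 1.44-fold in the heart. The second Fas probe, with differences of 0.70, 0.29 and 0.03, passed no limma test either (adjusted p from 0.189 to 0.981). Its heart difference of 0.70 (standard error 0.38) lies above the main probe's heart interval, so the heart limit holds for the main probe alone. Without any scaling between arrays, Fas was called higher in the liver on both days (1.76 and 1.86) and was -0.87 in the heart, while the median of all probes then moved with array brightness.

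Serpinb9, the intracellular inhibitor of granzyme B, rose least of the 8 genes that passed, as read on main probes. In the liver at POD5 it cannot be ranked against Gzmc, which has no fold bounded above 1 there. Its main probe read 7.97, 7.87 and 7.98 in heart controls and 8.72, 9.03 and 9.05 in heart allografts, and in the liver 6.42, 6.46 and 7.14 in controls, 7.30, 7.22 and 8.26 at POD5 and 7.60, 7.90 and 7.38 at POD8. The rises were 1.996-fold (1.32 to 3.03, limma adjusted p = 0.0172), 1.88-fold (1.24 to 2.86, adjusted p = 0.0444) and 1.93-fold (1.28 to 2.93, adjusted p = 0.044). Serpinb9 lost its call in the heart without heart allograft 3 (adjusted p = 0.0571) or heart control 2 (adjusted p = 0.053). It lost it at POD5 without liver POD5 arrays 1 or 3 or liver controls 1 or 2, with adjusted p up to 0.133, and at POD8 without any one of the POD8 arrays or liver controls 1 or 2, with adjusted p up to 0.161. It was also lost with slide as a random block in the heart (adjusted p = 0.114) and in the liver at POD5 (adjusted p = 0.0651), and in the liver on both days when the arrays of each day and their controls were normalized and fitted on their own (adjusted p = 0.249 and 0.105). With another background correction it was lost at POD5 (0.60, adjusted p = 0.0548), and without any scaling the heart difference was 0.07 (adjusted p = 0.901). The second Serpinb9 probe gave larger rises of 5.46-fold (3.18 to 9.36, limma adjusted p = 0.000366), 4.57-fold (2.67 to 7.84, adjusted p = 0.00171) and 5.69-fold (3.32 to 9.76, adjusted p = 0.000832). The 2 probes thus had the same direction and different sizes.

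**Figure D2:**
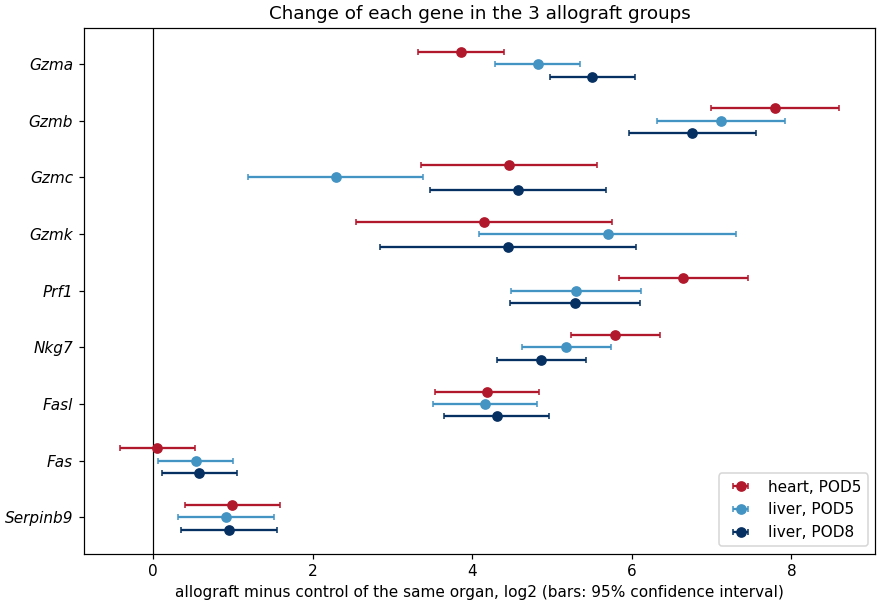
Difference between allograft and control of the same organ for the main probe of each gene, on the log2 scale (horizontal axis), with 95% confidence intervals; red is heart at POD5, light blue liver at POD5 and dark blue liver at POD8. Gzmb lay farthest right, at 7.80, 7.12 and 6.76, and the Fas interval in the heart crossed 0. Gzmc, Gzmk, Prf1 and Fasl are plotted at their measured values, although their liver controls were not well above background.

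Between POD5 and POD8 in the liver the question was whether the killing genes kept rising or receded. None of the 9 genes passed the test, with limma and Benjamini-Hochberg adjustment, in a comparison where 0.0293% of all probes did; 2 genes had an unadjusted p under 0.05, Gzma and Gzmc. Gzmc was 2.29 higher at POD8 (95% confidence interval 1.19 to 3.39, adjusted p = 0.175) and Gzma 0.69 higher (0.15 to 1.22, adjusted p = 0.419). For these genes the POD8 arrays lay above all POD5 arrays, as they did for 9.27% of probes. With the standardized fold change of the study's own method, which borrows variance from probes of like signal, Gzmc was called higher at POD8 (adjusted p = 0.0149). Gzmb was 0.36 lower at POD8 (-1.16 to 0.45), with arrays that did not overlap, as for 10.4% of probes. Gzmk was 1.24 lower (-2.85 to 0.36). For Prf1 the difference was -0.01 (-0.82 to 0.80), for Nkg7 -0.31 (-0.87 to 0.24) and for Fasl 0.15 (-0.51 to 0.80). These intervals still allow a rise of up to 1.74-fold in Prf1 or in Fasl.

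The heart and liver changes at POD5 were compared as a difference of differences, in which 18.0% of all probes but none of the main probes of the 9 genes passed, with limma and Benjamini-Hochberg adjustment; 3 genes had an unadjusted p under 0.05. Gzmc had changed more in the heart by 2.17 (95% confidence interval 0.62 to 3.73, adjusted p = 0.0547), Prf1 more in the heart by 1.35 (0.20 to 2.50, adjusted p = 0.0968) and Gzma more in the liver by 0.96, a value of -0.96 (-1.72 to -0.20, adjusted p = 0.0761). For Gzmb the value was 0.68 (-0.45 to 1.82). Gzmc and Prf1 have no measured liver control, and their values here use those control signals as read, not bounds. Scaling by the 75th percentile, which moved the median of all probes from 0.08 to 0.64, gave calls for Gzmc (3.32) and Prf1 (1.65), and without scaling the median moved to -1.69 and 6 genes were called, all with the larger rise in the liver. Single arrays also decided calls: Gzmc passed without heart allograft 1 (adjusted p = 0.0214) or liver POD5 array 3 (adjusted p = 0.0159), Gzmk without heart allograft 1 (adjusted p = 0.0444), Gzma without heart allograft 2 (adjusted p = 0.0423) or liver POD5 array 1 (adjusted p = 0.0361), and Prf1 without liver control 3 (adjusted p = 0.0274).

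**Figure D3:**
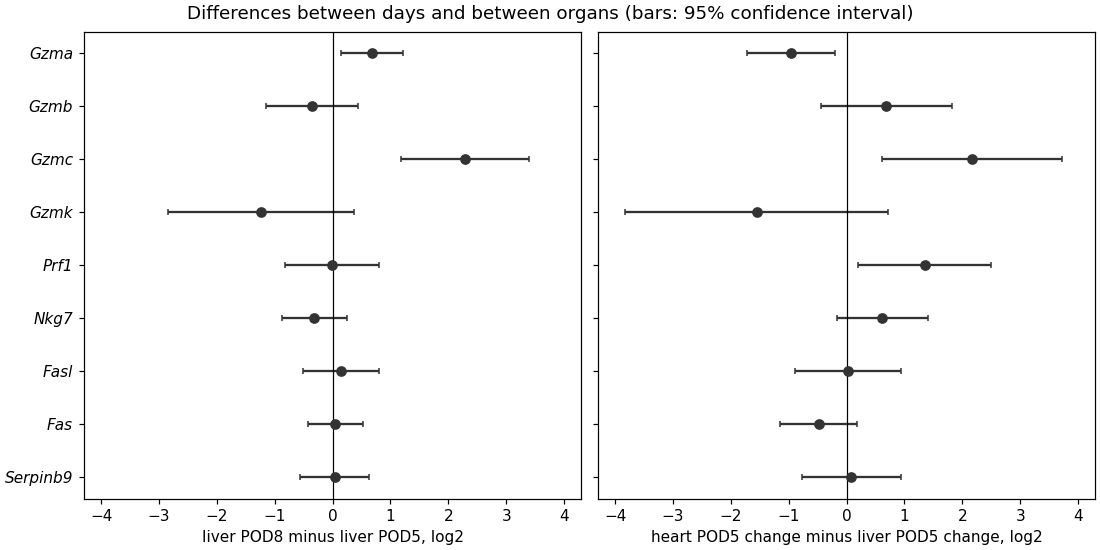
Left, liver POD8 minus liver POD5, and right, the heart POD5 change minus the liver POD5 change, for the main probe of each gene on the log2 scale with 95% confidence intervals. On the left only the Gzmc and Gzma intervals exclude 0, at 2.29 and 0.69, and neither passed after adjustment; on the right the same holds for Gzmc, Prf1 and Gzma.

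Side by side, the POD5 heart allografts were higher than the POD5 liver allografts in 6 of the 9 genes, where 19.3% of all probes were higher. These were Gzmc (4.62, limma adjusted p = 1.35e-05), Prf1 (2.15, adjusted p = 0.00063), Gzmb (1.83, adjusted p = 0.00186), Serpinb9 (1.35, adjusted p = 0.00208), Gzma (1.27, adjusted p = 0.0014) and Fasl (1.06, adjusted p = 0.0157). Within the slide that held the heart allografts and 1 liver POD5 array, the differences were 3.52, 2.24, 1.77, 0.68, 0.84 and 0.73 in the same order, and with slide as a block only Gzmc and Prf1 were called. Fasl lost its call without heart allograft 3 (adjusted p = 0.0514), liver POD5 array 1 (adjusted p = 0.0535) or liver POD5 array 2 (adjusted p = 0.0557), and Nkg7 gained one without liver POD5 array 3 (adjusted p = 0.0437). The control hearts were also higher than the control livers, in Gzmc, Gzma, Serpinb9, Gzmb and Fasl (1.03 to 2.45), in a comparison that called 27.6% of probes higher. No fold can be bounded above 1 for Gzmc or Fasl there. The second Fasl probe was called the opposite way, with a difference of -1.90 (limma adjusted p = 0.00119) that put the control livers at least 3.53-fold higher, so the 2 Fasl probes disagree. Between the POD5 allografts the second Fasl probe gave 0.94 and did not pass (adjusted p = 0.0835). Without any scaling all 9 genes were called higher in control hearts, in the direction of their brighter arrays. The donors and recipients of the organs differed in strain, which cannot be told apart from the organ.

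An order of levels on the main probe was shared by several of the 9 genes. Gzma, Gzmb, Prf1, Nkg7 and Fasl were highest in heart allografts, then in both liver allograft groups, which did not differ beyond the test, then in the controls. On the second Fasl probe the order was broken, as its liver controls, at 3.23 to 5.34, overlapped both liver allograft groups. Nkg7 did not pass the test between heart and liver at POD5. For Nkg7 the control groups overlapped, as did those for Gzmb and Prf1. For Gzmc the POD8 livers came second and the POD5 livers overlapped the heart controls. With no overlap, the POD8 livers lay above the POD5 livers for Gzma and below them for Gzmb. For Gzmk the 3 allograft groups overlapped. Serpinb9 differed in that its heart controls, at 7.87 to 7.98, overlapped both liver allograft groups on the main probe, whereas on the second probe they lay at 6.28 to 6.57, below both liver allograft groups (6.64 to 7.05 and 6.84 to 7.46). For Fas all allograft groups overlapped each other and the heart controls.

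The lymphocyte markers rose with the killing genes, and each killing gene was therefore set against the mean of 6 T cell genes (Cd3d, Cd3e, Cd3g, Cd247, Cd2 and Lck) on the same array. The value given is the change in this log2 ratio from control to allograft, with its standard error. With 3 arrays against 3, the exact two-sided permutation test cannot go below p = 0.10, so the arrays' overlap is given. On the signal itself, 29.0% (heart), 12.4% (liver POD5) and 12.9% (liver POD8) of all probes lay higher in allografts with no overlap. The share of probes for the ratio was not computed. Gzmb rose beyond the T cell genes by 3.79 ± 0.31 in the heart, 2.67 ± 0.57 at POD5 and 2.78 ± 0.58 at POD8 in the liver, with no overlap (exact permutation p = 0.10 each). Nkg7 rose beyond them by 1.78 ± 0.12, 0.73 ± 0.18 and 0.89 ± 0.18, again with no overlap. For Prf1, Fasl, Gzmc and Gzmk no liver control array was well above background, so only the heart ratio is given. Prf1 rose beyond the T cell genes by 2.63 ± 0.33 there, with no overlap. The heart ratio of Fasl (0.17 ± 0.18), Gzmc (0.45 ± 0.57) and Gzmk (0.14 ± 1.03) overlapped between allografts and controls. The Gzma ratio overlapped in the heart (-0.15 ± 0.34) and at POD5 in the liver (0.37 ± 0.23) and did not at POD8 (1.53 ± 0.22). The Fas and Serpinb9 ratios fell by 3.96 and 3.01 in the heart, where the T cell genes rose more. In the liver controls Cd247 was well above background on none of the 3 arrays, Cd2 on 1 and Cd3g on 2, so the liver ratios of all genes have an uncertain base.

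Between the liver days the same ratio can be read without the control arrays, and there all 6 T cell genes were measured. Relative to them, 5 genes were higher at POD8 than at POD5 with no overlap (exact permutation p = 0.10 each), Gzmc by 2.76 ± 0.55, Gzma by 1.16 ± 0.16, Fasl by 0.62 ± 0.15, Fas by 0.52 ± 0.21 and Prf1 by 0.46 ± 0.19. Gzmc was well above background on 1 of the 3 POD5 arrays. The ratio overlapped for Serpinb9 (0.51 ± 0.28), Nkg7 (0.16 ± 0.09), Gzmb (0.11 ± 0.15) and Gzmk (-0.78 ± 0.49). The receptor Fas and the inhibitor Serpinb9 thus differed by about as much as Prf1 and Fasl. The Prf1 signal itself was near level between these days, as given above, and that of Fas differed by 0.05. The T cell genes read lower at POD8, with a median difference of -0.40 over the 8 measured, of which none passed. Such a fall raises the ratio of a gene that does not change. On the signal itself, 9.27% of all probes lay higher at POD8 with no overlap. Between the POD5 allografts of the organs, the heart ratio was higher with no overlap for 7 genes, by 4.27 ± 0.64 for Gzmc, 1.80 ± 0.30 for Prf1, 1.48 ± 0.25 for Gzmb, 0.998 ± 0.307 for Serpinb9, 0.92 ± 0.30 for Gzma, 0.71 ± 0.16 for Fasl and 0.32 ± 0.07 for Nkg7. It overlapped for Gzmk (-0.53 ± 1.04) and Fas (-0.38 ± 0.36). On the signal itself, 24.6% of all probes lay higher in heart than in liver allografts at POD5 with no overlap. The share of probes for the ratio was not computed in either comparison. The mean of the 8 T cell genes overlapped between these groups, as given above, whereas the mean of the 10 NK cell genes was 8.43 to 8.50 in heart allografts, 6.46 to 7.48 in liver at POD5 and 6.70 to 7.17 at POD8. Their part in the organ differences was not tested.

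**Figure D4:**
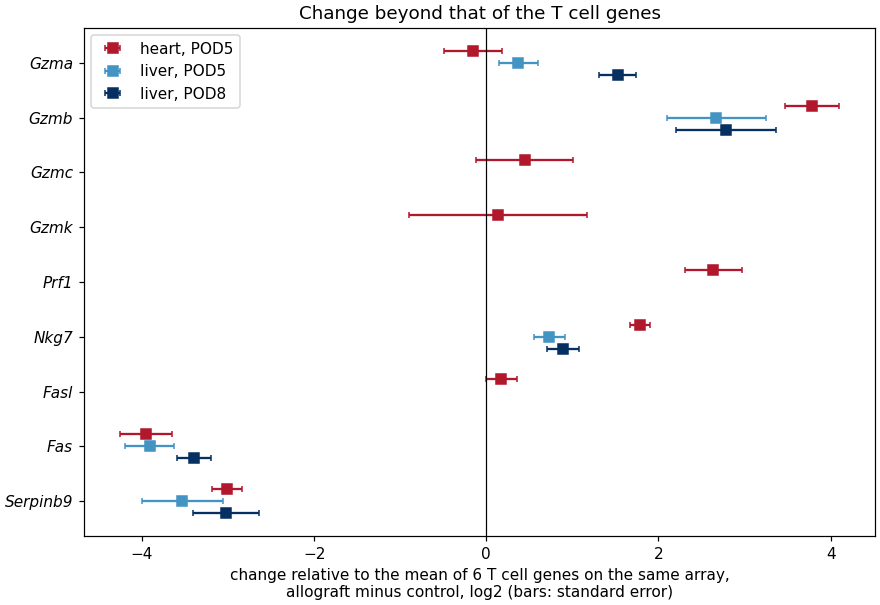
Change from control to allograft in the log2 ratio of each gene to the mean of 6 T cell genes on the same array (horizontal axis, bars are standard errors over 3 and 3 arrays), for heart POD5 (red), liver POD5 (light blue) and liver POD8 (dark blue). Genes with no liver control array well above background (Gzmc, Gzmk, Prf1 and Fasl) are shown for the heart alone. Values right of 0 rose more than the T cell genes: Gzmb at 3.79 in the heart is the highest, Fasl in the heart lies at 0.17, and Fas and Serpinb9 lie at about -3 to -4.

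Genes that make, load and release the granules were read as lists of known granule genes, chosen with earlier results of these arrays in view. Of 7 genes of the granule matrix and granzyme processing, 5 rose in all 3 comparisons: Cst7, Ctsw, Ctsc, Srgn and M6pr. Their list medians were 1.25, 1.97 and 1.90, beside 0.02, -0.07 and -0.08 over all probes. Cst7, which encodes cystatin F, an inhibitor of granule cathepsins, rose by 4.72 in the heart, 4.77 at POD5 and 4.99 at POD8. Ctsw, a cathepsin of cytotoxic cells, rose by 4.12, 3.43 and 2.82, and Ctsc, which activates granzymes, by 1.88, 1.97 and 1.90. Srgn, the proteoglycan core on which granzymes are stored, rose by 0.92 (limma adjusted p = 0.0497) in the heart and by 2.62 and 2.70 in the liver.

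Of 9 genes of granule exocytosis, 4 rose and 1 fell in the heart, while in the liver 3 rose on the earlier day and 4 on the later, with list medians of 1.25, 0.54 and 0.68. These are counts of few genes, beside the 13.3%, 8.12% and 7.02% of all probes called higher in the same comparisons and the 15.3% called lower in the heart. Unc13d, which primes granules for fusion, rose by 2.87, 2.61 and 2.42. Stx11, a fusion protein of the same step, rose by 3.52 and 3.45 in the liver and differed by 1.59 in the heart (limma adjusted p = 0.16). Sytl2, whose liver controls were all below background, was higher there by at least 2.24-fold on the earlier day and by at least 1.096-fold on the later, and differed by 0.16 in the heart. Lyst, the lysosomal trafficking regulator, rose by 1.42 in the heart and differed by 0.54 and 0.68 in the liver.

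Of 6 other granzymes, none rose from control to allograft in either organ. Gzmd, Gzme, Gzmf, Gzmg and Gzmn were not well above background on most arrays, and Gzmm, with means of 6.15 in heart controls and 6.52 in heart allografts, passed none of these tests. In the heart Gzme fell by 1.37, from 2 of 3 control arrays above background to none, and no fold can be bounded above 1. Several of these genes resemble Gzmb and Gzmc in sequence, and cross-hybridisation was not tested.

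Of 21 genes of the death receptor and caspase pathway, 10 rose and 1 fell in the heart, and 4 rose in the liver on each day, with list medians of 0.61, 0.24 and 0.35, beside the same shares of all probes. Tnf, the cytokine ligand, rose by 4.47, 2.55 and 3.22, and Tnfsf10, which encodes TRAIL, by 2.34, 2.25 and 2.26. Bid, a granzyme B substrate that acts on mitochondria, rose by 1.88 in the heart and differed by 0.21 and 0.35 in the liver. Apaf1, the apoptosome scaffold, rose by 2.31 and 1.91 in the liver and differed by 0.59 in the heart. Tnf, Tnfsf10 and Apaf1 were each above background on 2 of 3 liver control arrays. Of 10 serpins related to Serpinb9, none rose in the heart and 1 fell, while 1 rose in the liver on each day and 1 fell at POD8, beside 8.12% and 7.02% of all probes called higher in the liver and 4.65% called lower at POD8. Serpinb6b was the one that fell by 0.70 in the heart and rose by 1.41 and 1.58 in the liver. Only 4 to 6 of the 10 serpins were well above background on any heart array, and 4 or 5 on any liver array.

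**Figure D5:**
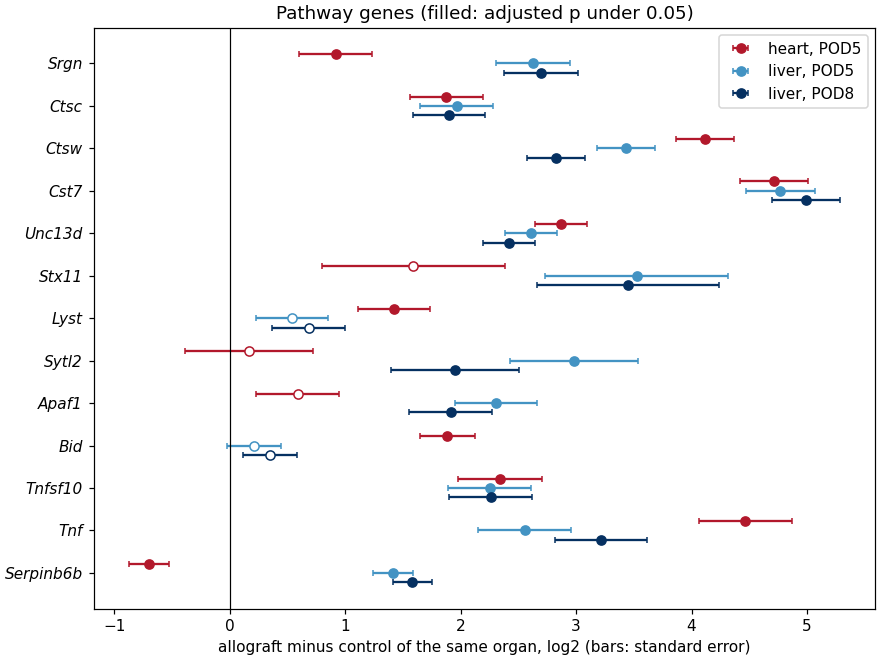
Difference between allograft and control of the same organ on the log2 scale (horizontal axis, bars are standard errors) for the named pathway genes, in heart at POD5 (red) and liver at POD5 (light blue) and POD8 (dark blue); filled points passed the adjusted threshold. Cst7 moved by 4.72 to 4.99 in all groups, while Serpinb6b fell in the heart and rose in the liver.

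The genes whose signals followed the members most closely over the 15 arrays were found among 14428 genes, as a description in which the points share organ, group and slide. For Gzmb they were Pik3cd, H2-Ab1 and Gbp9 (Pearson r = 0.991, 0.989 and 0.989). For Prf1 they were Rasal3, Map4k1 and Pik3cd (0.988, 0.988 and 0.987), and for Fasl Cd3d, Traf3ip3 and Prf1 (0.985, 0.985 and 0.984). Serpinb9 was closest to Rbm8a, Mgarp and Zup1 (0.970, 0.968 and 0.966) and Fas to Rbm7, Tfec and Armc3 (0.903, 0.884 and 0.869), so Fas had the loosest neighbours of these 5 members.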

How the data were processed

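Total RNA from 15 mouse heart and liver samples, labelled with Cy3, was hybridised to Agilent arrays, and the authors deposited scanner tables of Agilent Feature Extraction 10.5.1.1, in which the processed signal is a background-corrected intensity on a linear scale. Median and background median intensities, deposited in the same tables, served 1 alternative. Samples were grouped by the labels. Spots marked as outliers were left out, spots of a probe averaged, and the log2 of the deposited processed intensity quantile-normalized over 15 arrays (41003 of 41174 probes with a value on all arrays; the annotation gave 64.8% of probes a RefSeq symbol, GRCm38.p6). One linear model of 5 groups was fitted with limma 3.58.1 in R 4.3.3, with 7 contrasts and Benjamini-Hochberg adjustment over all probes at 0.05. The number of arrays limits the precision.

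Where a group had no array well above background, its fold is a lower bound. On each of its arrays the probe was given its own signal or, if higher, that array's lowest signal well above background, and these were averaged. The named genes were the 9 members with every probe, up to 4 genes per pathway list with the largest called difference in the heart or in the liver at POD5, and the 3 genes most correlated with each of 5 members. The members and lists were chosen with earlier results of these data known. Of lists of markers, T cell and NK cell genes are described in the text; of 5 genes of all leukocytes 3, 5 and 5 were higher (heart, liver POD5, liver POD8), of 5 B cell genes 1, 0 and 0, of 5 macrophage genes 1, 2 and 3, of 5 neutrophil genes none, and of 5 proliferation genes 1, 5 and 5. Of all probes, 13.3%, 8.12% and 7.02% were called higher. In heart allografts 1 macrophage gene and 2 neutrophil genes were lower, and in the liver no gene of these lists was lower. Alternatives covered scaling, background, dim probes, probes per gene, the test, slides and each array left out. On simulated arrays with 200 probes changed by 3 log2 units, 168 were recovered in the heart comparison and 130 in the difference of differences.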

Additional observations from a re-analysis of the deposited data

Results flagged for a closer look

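Differences between the heart and liver changes at POD5, tested as an interaction in limma, passed for 1 probe of the 9 genes and for 6 of the named pathway genes. The second Fasl probe had risen by 2.84 more in the heart than in the liver (adjusted p = 0.00533), whereas the main Fasl probe gave 0.02 (adjusted p = 0.975); the second probe was a single dim spot, not above background on any heart control and above it on 2 of 3 liver controls. Tnf had risen by 1.91 more and Bid by 1.68 more in the heart. Srgn (-1.71), Apaf1 (-1.72) and Sytl2 (-2.82) had risen less in the heart than in the liver. Serpinb6b (-2.11) had fallen by 0.70 in the heart and risen by 1.41 in the liver. The liver controls of Sytl2 were not well above background on any array. Its value uses those control signals as read, not a bound, and so is not a measured difference. All of these differences share the uneven brightness of the control arrays, whose part was not tested.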

How the results depend on the processing

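The number of the 9 genes called was 8 in each allograft comparison, 0 between the liver days and in the difference of differences, 5 between the controls and 6 between the POD5 allografts. With Bonferroni adjustment these were 5 in heart allografts, 5 in liver at POD5, 6 at POD8, 1 between controls and 1 between POD5 allografts. The standardized fold change called 3 in the heart, 6 in the liver on each day, 1 between the liver days (Gzmc), 0 between controls and 0 between POD5 allografts. The methods' t-test after Bonferroni adjustment called 0 in the heart, 0 in the liver on either day and 0 in both organ comparisons, and after Benjamini-Hochberg adjustment 7 in heart allografts, 4 in POD5 livers and 7 in POD8 livers. The difference of differences gave 2 genes with 75th percentile scaling, 2 with normexp, 1 with dim probes left out, 1 with all probes of a gene averaged, 6 without scaling and 0 to 2 as single arrays were left out. Between the controls 2 were called with normexp, 9 without scaling and 3 to 5 with an array left out, the lowest without heart control 3, where Gzmb (adjusted p = 0.0574) and Fasl (adjusted p = 0.0543) were lost; Gzmb was also lost without heart control 1 or liver controls 1 or 2, and Prf1 gained without liver control 2 (adjusted p = 0.0201). The slide as a fixed block gave 0 in the liver at POD8, where it leaves few degrees of freedom, and 2 between POD5 allografts. Blocking on the replicate number (replicate block) left these counts as they were, at 8, 8, 8, 0, 0, 5 and 6; same-numbered arrays did not deviate together (correlations from -0.12 to 0.09), so the numbers were not taken as pairs.

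The sizes of the differences moved with the processing as well, which the confidence intervals do not include. Leave-one-out settings aside, the heart difference ran from 4.53 to 6.80 for Prf1 and from 2.03 to 4.47 for Fasl. For Gzmb it ran from 6.68 to 7.80 in the heart, 5.89 to 8.53 in the liver at POD5 and 5.58 to 8.22 at POD8. The sign turned mostly where a difference was close to 0, and the cause was not tested. In the difference of differences without scaling, Gzmb was -1.85, Prf1 -0.68, Nkg7 -1.91, Fasl -1.76 and Serpinb9 -2.30, beside a median of -1.69 over all probes; Fasl was -0.024 with outlier spots kept and -0.14, and Serpinb9 -0.14, with slide as a random block. For Fas in the heart the value was -0.87 without scaling, -0.031 by the standardized fold change and -0.038 with slide as a random block. Between the liver days Prf1 was 0.033 without scaling and 0.046 with normexp, and Fas -0.11 with probes averaged. Between the POD5 allografts Gzmk was 0.31 without scaling and 0.0091 with normexp, and Fas 0.39 without scaling and 0.094 with probes averaged. Between the controls Gzmk was -0.13 with 75th percentile scaling and Fasl -0.43 with probes averaged. With single arrays left out, values that turned ranged from -0.16 to 0.18 for Fas in the heart. Between the liver days they ranged from -0.22 to 0.15 for Prf1, -0.10 to 0.24 for Fas and -0.15 to 0.37 for Serpinb9. In the difference of differences they ranged from -0.22 to 0.36 for Fasl and -0.15 to 0.42 for Serpinb9. Between the organs they ranged from -0.15 to 0.32 for Nkg7 in controls, and in allografts from -1.15 to 0.58 for Gzmk and -0.24 to 0.16 for Fas. Signals near background on the dim liver controls limit the liver folds of Gzmc, Gzmk, Prf1 and Fasl. The liver controls of Gzma (5.35, 5.64 and 5.57) and Gzmb (5.34, 5.32 and 6.69) were well above background but dim too. The lowest signals so marked on these arrays were 4.56, 4.09 and 4.35, so the liver folds of Gzma and Gzmb also rest on dim signals.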
